A study of Rattus norvegicus with 24 samples.

Results

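The comparison described here sets heart muscle taken 20 weeks after surgery that made the mitral valve leak (mitral regurgitation, MR) against heart muscle taken 10 weeks after the same surgery. Its members are the 10 libraries that carry those 2 labels, 5 at each time, of 24 libraries in the series. They were chosen by label alone. Values come from the 2 deposited tables that hold these times, joined on the gene symbol, and every library was put on 1 scale by median ratios to the geometric mean of each gene. RNA sequencing was done on myocardium of Sprague-Dawley rats. All 10 libraries follow left thoracotomy with perforation of a mitral leaflet, and no drug, transgene or other allele is named in the labels. The Sham group (n = 5) had the operation without the perforation and was taken at 2 weeks. Sham values are given as levels only. The groups differ in how long the leak had lasted and may differ in age and handling, and these cannot be told apart here, since all Sham libraries are from 2 weeks. Batch, sex, age, heart chamber and time of day of collection are not in the labels. The labels also do not say that each library is a separate animal, so a p-value measures the spread between these libraries.

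A leaking mitral valve sends part of each beat back into the left atrium, and the left ventricle fills with a larger volume. The ventricle enlarges, and the load can be borne for a long time before contraction weakens. Heart muscle burns mostly fatty acids in its mitochondria, and the enzymes of that path are among the genes that shift with load. The heart also has its own circadian clock, in which Clock and Bmal1 (gene Arntl) drive the Per, Cry, Nr1d and Dbp genes, whose products act back on the clock in a daily cycle.

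The tables list 10404 genes at 10 weeks and 10275 at 20 weeks, of which 10207 are in both, 197 only in the first and 68 only in the second. Genes with 0 reads in any library of a table are not listed there. Reads on listed genes came to 8.80 to 12.1 M per library at 10 weeks and 9.08 to 10.0 M at 20 weeks. The 2 tables were normalised separately by the authors, so each level set across them rests on the rescaling. All 8 cardiomyocyte markers were listed, and their summed level was 23939.6 to 40549 at 10 weeks and 34816 to 48221 at 20 weeks. Of 10 atrial markers 7 were tested, and Sln, Bmp10 and Stmn2 were not listed. The summed level of the 7, which holds Nppa, was 4531 in 10-week replicate 4 and 2037 in replicate 3, 602 to 755 in the other 10-week libraries, and 779 to 2029.8 at 20 weeks. Its part in the differences below was not tested. Levels below are rescaled normalised read counts, and a difference is the mean log2(value + 1) at 20 weeks minus that at 10 weeks.

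Libraries of 1 group were not alike. On the first principal component, with 36.1% of the variance, the 10-week libraries scored −21.0 to −6.09 and replicates 2 to 5 of the 20-week group scored 4.49 to 37.9. Replicate 1 of the 20-week group scored −15.7, among the 10-week libraries. Replicate 4 of the 10-week group was apart on the second component (16.7% of the variance), at −27.6 where the other 10-week libraries were at −7.81 to 11.2. Its TCA cycle and fatty acid genes were the lowest of the 10 libraries and its macrophage genes the highest, as given below. Several lists and genes are therefore given with and without one of these libraries.

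**Figure D1:**
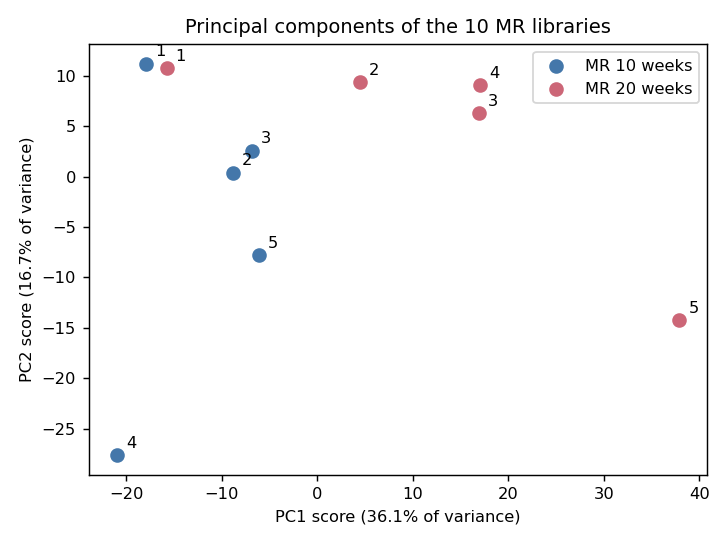
Scores of the 10 MR libraries on the first 2 principal components of the log2 values, with the share of variance on each axis; numbers are replicates and colours the 2 times. Replicate 1 at 20 weeks (−15.7 on the first component) lies with the 10-week libraries, and replicate 4 at 10 weeks (−27.6 on the second) lies apart.

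With all 10 libraries, 3 genes fell between 10 and 20 weeks and 0 rose. They were Per3, a circadian clock gene, Tspan4, a tetraspanin of the cell membrane, and Pld4, a nuclease of the endolysosome found in macrophages and dendritic cells. The test was limma with Benjamini-Hochberg adjustment over 9944 genes, at an adjusted p under 0.05. The genes that fell were 0.0302% of those tested. Of all tested genes 49.5% were above 0 and 50.5% below. At an unadjusted p under 0.05 in limma, 1024 genes were higher (10.3%) and 849 lower (8.54%), 18.8% in all. The 5 values of a group did not overlap those of the other for 159 genes higher at 20 weeks (1.6%) and 150 lower (1.51%), 3.11% in all. The edgeR quasi-likelihood test on recovered reads also gave 0 rises and 3 falls, the same genes, and DESeq2 gave 262 and 153. On the deposited values with no rescaling, the median difference over all genes was −0.11 and the split at an unadjusted p under 0.05 was 410 higher against 1672 lower, with 0 rises and 9 falls after adjustment. With the tables linked through their shared Sham libraries, that split was 548 against 1302.

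Leaving out 1 library changed this count more than any change of scaling. Without replicate 1 of the 20-week group, 587 genes (5.9%) passed as higher and 437 (4.39%) as lower in limma with Benjamini-Hochberg adjustment. In the other 9 fits with a library left out, 0 or 1 gene passed as higher and 0 to 3 as lower, and both counts were 0 without replicate 1, 2 or 3 of the 10-week group or replicate 2, 3 or 4 of the 20-week group. With library weights estimated from the data, in which 20-week replicate 1 had the lowest weight (0.423), 577 genes passed as higher and 412 as lower. The attention given to replicate 1 was chosen after its values were seen. The 587 and 437 genes are described here as values of that fit and not as changes of the whole comparison.

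**Figure D2:**
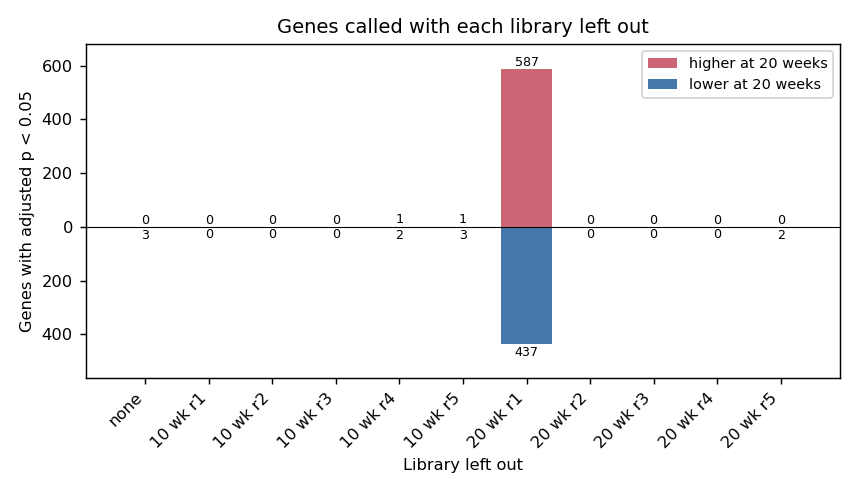
Number of genes past a limma adjusted p of 0.05, higher (upward) and lower (downward) at 20 weeks, with no library left out and with each of the 10 left out in turn. The bars reach 587 and 437 without 20-week replicate 1 and at most 1 and 3 otherwise.

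The genes chosen by that fit place each library on the same scale. Against the 10-week mean, the 587 genes had a median log2 difference of 0.48, 0.58, 0.59 and 0.75 in replicates 2 to 5 at 20 weeks and of 0.04 in replicate 1. The 437 genes had −0.47, −0.55, −0.54 and −0.76 in replicates 2 to 5 and 0.04 in replicate 1. Since 9 of these libraries chose the genes, their separation is a description. The Sham libraries, which had no part in the choice, did not lie together: over the 587 genes, replicates 1, 4 and 5 had 0.46, 0.41 and 0.54, and replicates 2 and 3 had −0.12 and −0.25. Over the 437 genes, Sham replicates 1, 4 and 5 had −0.42, −0.49 and −0.47, and replicates 2 and 3 were within 0.01 of the 10-week mean. Thus 3 Sham libraries lay near the 20-week side and the other 2 near the 10-week side. The zero point is the mean of 10-week libraries that helped choose these genes, which can place any other library toward the 20-week side. How far it did so was not tested. On a scale set over all 24 libraries, MR at 40 weeks had 0.76 to 1.13 over the higher genes listed in every table and −1.03 to −0.75 over the lower, and MR at 2 weeks spread from −0.65 to 0.33 and from −0.42 to 0.41.

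The circadian clock list held the gene with the smallest p of the whole comparison. Of 23 clock genes 19 were tested. Per3 fell, 18 did not pass, 8 were above 0 and 11 below, and the median difference was −0.05 beside −0.00 over all genes. The groups did not overlap for 4 clock genes, all lower at 20 weeks, where 1.51% of all tested genes were lower without overlap. The 4 were Per3, Per2, Tef and Nr1d2, and the sequences just upstream of 3 of them are shown first, because every 20-week library was below every 10-week library for these clock genes. Of the 4, Per3 alone passed.

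Each is the 250 bases before the annotated gene start in RefSeq on the build GRCr8, 5′ to 3′ on the gene's own strand. Per3 is at chr5:166777801-166778050, minus strand, Per2 at chr9:99496994-99497243, minus strand, and Tef at chr7:115206577-115206826, plus strand. Capitals mark any of 3 motifs searched on both strands: the E-box CACGTG, to which Clock and Bmal1 bind, its variant CACGTT, and the D-box TTATGTAA or TTATGCAA, to which Dbp and Tef bind.
Per3: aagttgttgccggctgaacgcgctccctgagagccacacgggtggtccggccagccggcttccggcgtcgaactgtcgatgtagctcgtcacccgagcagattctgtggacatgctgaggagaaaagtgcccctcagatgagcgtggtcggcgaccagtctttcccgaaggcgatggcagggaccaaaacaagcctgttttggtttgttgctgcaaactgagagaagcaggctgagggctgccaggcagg
Per2: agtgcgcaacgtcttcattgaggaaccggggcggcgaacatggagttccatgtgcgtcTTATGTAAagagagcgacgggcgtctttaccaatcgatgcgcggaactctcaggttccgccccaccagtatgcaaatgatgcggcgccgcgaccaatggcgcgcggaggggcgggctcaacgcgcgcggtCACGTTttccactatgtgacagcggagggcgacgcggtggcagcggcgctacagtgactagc
Tef: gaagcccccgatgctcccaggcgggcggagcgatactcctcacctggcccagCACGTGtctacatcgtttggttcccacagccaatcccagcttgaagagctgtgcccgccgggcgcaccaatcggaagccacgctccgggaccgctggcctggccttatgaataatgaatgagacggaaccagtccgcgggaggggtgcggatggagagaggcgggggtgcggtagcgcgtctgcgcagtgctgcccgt
The Per2 window holds the D-box 192 bases and CACGTT 62 bases before the gene start, and the Tef window holds the E-box 198 bases before it. None of these letters is in the Per3 window. Of 16 clock genes with a promoter in the table, 3 (18.8%) hold the E-box, 3 (18.8%) CACGTT and 1 (6.25%) the D-box. Of 7830 tested genes with a promoter there, 8.34%, 4.88% and 0.92% hold them, and of all 27457 promoters 5.79%, 4.14% and 1.53%. A match is a description of the letters in this window.

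Per3 and Per2 encode period proteins, which repress Clock and Bmal1. Per3, at chr5:168088126-168123031 on rn6, minus strand, was at 32.5, 34.01, 22.5, 19.1 and 24.3 in 10-week replicates 1 to 5, and at 8.78, 6.24, 7.68, 10.8 and 13.5 in 20-week replicates 1 to 5. Every 10-week library was above every 20-week library, and the Sham libraries (13.4, 10.3, 18.6, 10.5 and 20.01) lay between or overlapped both. Per3 fell by 1.41 ± 0.20 SE (limma adjusted p = 0.0256). In limma fits with 1 library left out, the adjusted p ranged from 0.0044 to 0.145, and Per3 did not pass without replicate 1, 2 or 3 of the 10-week group or replicate 2, 3 or 4 of the 20-week group. Over all 24 libraries in 1 fit, the difference was −1.41 with a limma adjusted p of 0.197. On that scale Per3 spanned 8.86 to 57.5 in MR at 2 weeks. Per2 was at 129.8, 157, 108, 115 and 77.7 at 10 weeks and at 71.02, 51.2, 35.7, 61.6 and 47.7 at 20 weeks. Its groups did not overlap either, but it did not pass (−1.12 ± 0.19 SE, limma adjusted p = 0.0741). It passed without 20-week replicate 1 (−1.23, limma adjusted p = 0.00997) and on the deposited values without rescaling (limma adjusted p = 0.014).

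Tef and Dbp are transcription factors of the PAR bZip family that act at D-boxes, and Nr1d2 is the nuclear receptor Rev-erb beta, a repressor of Arntl. Tef was at 179, 138, 146, 123 and 114 at 10 weeks and at 73.4, 90.1, 95.7, 113 and 88.5 at 20 weeks (−0.59 ± 0.14 SE, limma adjusted p = 0.112). Nr1d2 was at 111, 76.3, 63.3, 65.8 and 68.1 and at 55.4, 44.9, 40.7, 57.5 and 48.2 (−0.61 ± 0.15 SE, limma adjusted p = 0.114). Neither passed, and for both the highest 20-week library was just below the lowest 10-week library. Nr1d1, which encodes Rev-erb alpha, was at 57.3 ± 7.03 and 57.8 ± 11.3 (SD, n = 5 each) and showed no such separation. Cry1 and Cry2, the cryptochromes that repress together with the period proteins, differed by 0.03 and −0.37, and neither passed.

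Arntl and Dbp, singled out after their values were seen, split both groups. Arntl was at 1.32, 1.57, 2.89, 10.4 and 7.10 in 10-week replicates 1 to 5 and at 17.4, 14.005, 14.2, 7.43 and 5.86 in 20-week replicates 1 to 5 (1.36 ± 0.41 SE, limma adjusted p = 0.134). Dbp was at 102, 102, 94.6, 33.7 and 72.96 and at 13.6, 14.5, 28.6, 55.97 and 58.4 (−1.37 ± 0.40 SE, limma adjusted p = 0.131). In 10-week replicates 1 to 3 Arntl was low and Dbp high, in 20-week replicates 1 to 3 Arntl was high and Dbp low, and the remaining 4 libraries had Arntl between 5.86 and 10.4. Npas2, a partner of Bmal1 that can stand in for Clock, was at 3.64, 1.95, 2.89, 8.32 and 11.1 and at 22.7, 7.96, 10.1, 5.24 and 3.54, again low in 10-week replicates 1 to 3. Arntl and Dbp are near opposite points of the daily cycle. The time of day at which hearts were taken is not in the labels, and its part in these values was not tested.

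**Figure D3:**
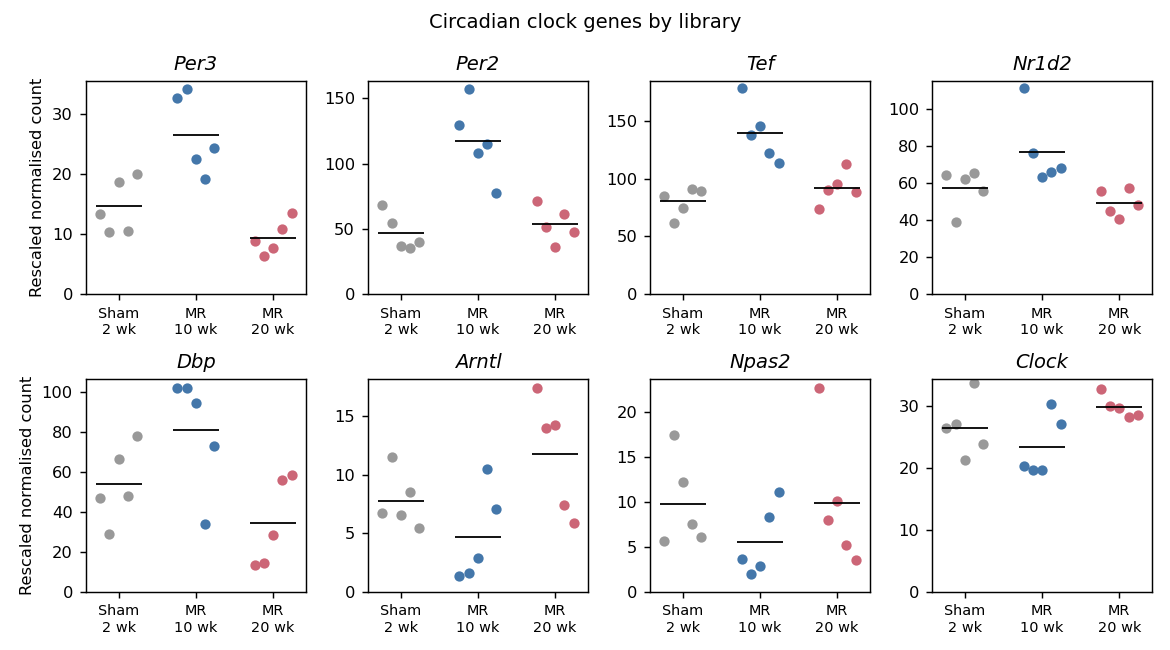
Rescaled normalised counts of 8 clock genes in Sham at 2 weeks, MR at 10 weeks and MR at 20 weeks; each point is a library, in replicate order from left to right, and the line is the group mean (n = 5). Per3, Per2, Tef and Nr1d2 do not overlap between the MR times, while Arntl and Npas2 are low in 10-week replicates 1 to 3 and Dbp is low in 20-week replicates 1 to 3.

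Tspan4 and Pld4 also fell. Tspan4, at chr1:214017184-214473742 on rn6, was at 38.04, 43.4, 35.4, 28.4 and 23.2 at 10 weeks and at 17.6, 14.1, 13.2, 14.9 and 16.1 at 20 weeks, and fell by 1.08 ± 0.15 SE (limma adjusted p = 0.0256). Its span in the table overlaps 17 other listed genes, Irf7, Rnh1 and Rplp2 among them, and no source used here gives the counting rule or strand setting, so reads of neighbours in its count cannot be told apart. Pld4, at chr6:137323713-137331232, was at 7.98, 6.56, 5.22, 6.41 and 6.38 and at 2.77, 3.64, 2.36, 2.77 and 3.22, and fell by 0.93 ± 0.14 SE (limma adjusted p = 0.0425). Tspan4 passed and failed in the same fits with a library left out as Per3 did. For both genes every 20-week library lay below every 10-week library, replicate 1 included. Sham was at 19.4 ± 4.56 for Tspan4 and at 5.33 ± 0.384 for Pld4 (SD, n = 5 each). Pld4 stayed past the threshold in the fit of all 24 libraries (limma adjusted p = 0.00517), but of the 10 fits with a library left out it passed only in the one without 20-week replicate 1 (limma adjusted p = 0.00997).

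The 9 other named lower genes had groups that did not overlap and did not pass (limma adjusted p from 0.0616 to 0.11). They include Fabp5, a fatty acid binding protein (46.9 ± 7.10 against 26.2 ± 5.34, SD, n = 5 each), Emp3, a membrane protein (14.5 ± 1.91 against 7.89 ± 1.22), and Prph, the neuronal intermediate filament peripherin (7.93 ± 0.626 against 4.38 ± 0.817). Prph was the only 1 of 7 tested Schwann and neuronal markers below 0, and 6 were above 0. Cyba, a subunit of the phagocyte NADPH oxidase, was at 27.9, 25.03, 23.6, 38.03 and 25.9 at 10 weeks and at 20.4, 17.7, 16.8, 15.05 and 13.2 at 20 weeks (−0.72 ± 0.15 SE). Coro1a, an actin regulator of white blood cells, differed by −0.71 ± 0.15 SE, and the immediate early gene Ier2 by −0.70 ± 0.14 SE. Agpat4, an acyltransferase of phospholipid synthesis, differed by −0.77 ± 0.14 SE, and Ppl, the desmosomal protein periplakin, by −0.86 ± 0.18 SE. Each of the 9 passed in limma without 20-week replicate 1, where 4.39% of all tested genes passed as lower. These 9 were chosen by p-value and lack of overlap in the same libraries, so passing in that fit adds no support.

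The 12 named higher genes likewise had groups that did not overlap and did not pass (limma adjusted p from 0.0751 to 0.11). Kpna2, an importin of nuclear transport, had the smallest p among them and was at 30.5, 27.8, 30.5, 24.8 and 42.01 at 10 weeks and at 43.1, 53.3, 55.5, 67.9 and 65.6 at 20 weeks (0.86 ± 0.15 SE). Perm1, a muscle regulator that acts with PGC-1 and ERR factors on mitochondrial genes, was at 72.6, 95.999, 90.1, 59.7 and 85.97 and at 111, 132, 149, 146 and 151 (0.78 ± 0.14 SE). In both, 20-week replicate 1 was the lowest of its group and still above the highest 10-week library. Cdh2, the N-cadherin of the intercalated disc, differed by 0.68 ± 0.13 SE, the kelch protein gene Klhl31 by 0.92 ± 0.18 SE, and Popdc2, a cAMP-binding protein of the muscle membrane, by 0.62 ± 0.13 SE. Mpc1, a subunit of the carrier that takes pyruvate into mitochondria, was at 164 ± 18.3 against 256 ± 35.03 (SD, n = 5 each), and Hibch, an enzyme of valine breakdown, at 14.1 ± 1.87 against 22.2 ± 3.14. The cardiac kinase gene Tnni3k differed by 0.69 ± 0.15 SE, Dkk3, a secreted protein of the dickkopf family, by 0.58 ± 0.11 SE, the RNA-binding protein gene Csdc2 by 0.87 ± 0.18 SE, and Herc3 by 0.64 ± 0.13 SE. All 12 passed in limma without 20-week replicate 1, where 5.9% of all tested genes passed as higher. These 12 were chosen by p-value and lack of overlap in the same libraries, so passing in that fit adds no support.

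Genes of fuel use stood higher at 20 weeks as groups, although 0 of them passed with all 10 libraries. Of 23 tested genes of the tricarboxylic acid (TCA) cycle and pyruvate dehydrogenase, all 23 were above 0, with a median difference of 0.47. Of these, 19 had an unadjusted p under 0.05 in limma, where 10.3% of all tested genes did on the higher side, and 17 passed without 20-week replicate 1, where 5.9% of all tested genes did. The fatty acid list had 38 of 40 genes above 0 and a median of 0.42, with 24 at an unadjusted p under 0.05 and 18 past the threshold without 20-week replicate 1. The fatty acid median was 0.31 without 10-week replicate 4, the lowest library for both lists. The median over all tested genes was −0.00. In this bulk tissue, fewer cells of a type and less RNA per cell cannot be told apart.

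The mean log2 level of the TCA cycle genes was centred over the 10 MR libraries. It was −0.24, −0.12, −0.07, −0.68 and −0.17 in 10-week replicates 1 to 5. In 20-week replicates 1 to 5 it was −0.15, 0.21, 0.31, 0.42 and 0.48. Replicate 1 at 20 weeks lay inside the range of the 10-week group, and replicate 4 at 10 weeks lay far below it. The Sham libraries spanned −0.60 to 0.38, wider than either MR group. The median difference of the list was 0.56 without 20-week replicate 1 and 0.38 without 10-week replicate 4. Cardiomyocyte markers moved with these genes: all 8 were above 0, with a median of 0.30, and of 0.17 without 10-week replicate 4. Their part in the fuel genes' difference was not tested.

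Pyruvate dehydrogenase, the gate from glucose to the TCA cycle, gave the 4 smallest p-values of the TCA list. Its E1 alpha subunit gene Pdha1 was at 231, 207, 216, 158 and 223 at 10 weeks and at 238, 317, 323, 354 and 354 at 20 weeks (0.61 ± 0.14 SE, limma adjusted p = 0.11). The groups did not overlap, by the small gap between 20-week replicate 1 and 10-week replicate 1. Dlat, the E2 subunit, Pdhb, the E1 beta subunit, and Pdhx, the E3 binding protein, differed by 0.70 ± 0.18 SE, 0.67 ± 0.17 SE and 0.88 ± 0.21 SE. Ogdh, which encodes the E1 subunit of 2-oxoglutarate dehydrogenase, had the highest difference of the list, at 1.18, and citrate synthase (Cs) differed by 0.65. None of these passed with 10 libraries, and all 6 passed without 20-week replicate 1.

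Ucp3, an uncoupling protein of the inner mitochondrial membrane that rises with fatty acid supply, had the smallest p of the fatty acid list. It was at 20.8, 17.1, 20.5, 10.1 and 18.95 at 10 weeks and at 45.4, 39.8, 37.6, 23.7 and 35.9 at 20 weeks (1.03 ± 0.20 SE, limma adjusted p = 0.0888). Here 20-week replicate 1 was the highest library of all, unlike its place in most fuel genes. On the scale of all 24 libraries Ucp3 was at 14.9 ± 2.80 in MR at 40 weeks (SD, n = 5) and at 9.43 ± 3.64 in MR at 2 weeks (SD, n = 4), and the 20-week mean of 35.3 ± 7.76 (SD, n = 5) was the highest of the 5 groups, its lowest library being within the range of Sham. Etfdh and Etfa, which pass electrons from fatty acid oxidation to the respiratory chain, differed by 0.76 ± 0.19 SE and 0.72 ± 0.18 SE. Cpt1b, which commits fatty acids to the mitochondrion, was at 249, 230.4, 259, 180.1 and 235 and at 295, 294, 274, 277 and 275, without overlap but with a small difference (0.30 ± 0.11 SE, limma adjusted p = 0.187). Pdk4, the kinase that turns pyruvate dehydrogenase off, was at 28.5, 33.4, 26.5, 15.2 and 27.6 and at 29.7, 40.6, 39.3, 37.04 and 80.9, high in 20-week replicate 5 (0.73 ± 0.24 SE). Of these 5 genes, Ucp3, Etfdh, Etfa and Pdk4 passed without 20-week replicate 1 and Cpt1b did not.

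Respiratory chain and ATP synthase genes were less far apart between the times. Of 70 tested, 59 were above 0 and the median was 0.20. Centred over the 10 MR libraries, the mean log2 level was −0.10, 0.13, 0.09, −0.30 and −0.35 in 10-week replicates 1 to 5. It was 0.03 to 0.16 at 20 weeks. Replicates 2 and 3 at 10 weeks lay inside that range, and replicates 4 and 5 were the lowest. On the higher side 21 had an unadjusted p under 0.05 in limma, and 10 passed without 20-week replicate 1. Of all tested genes 10.3% and 5.9% did so, in that order. Ndufs1, the largest subunit of complex I, was at 65.6, 78.5, 74.8, 36.8 and 89.4 at 10 weeks and at 70.9, 116, 148, 172 and 227 at 20 weeks (1.03 ± 0.28 SE). Its 20-week value in replicate 1 lay inside the 10-week range and replicate 5 was the highest. The complex III core subunit gene Uqcrc2 differed by 0.65 ± 0.16 SE and cytochrome c (Cycs) by 0.48 ± 0.13 SE. Mitochondrial ribosome genes were above 0 in 61 of 67 cases, with a median of 0.17. Without 20-week replicate 1, 11 passed as higher, where 5.9% of all tested genes did. The mean log2 level of that list was −0.16, 0.03, 0.09, −0.26 and −0.21 in 10-week replicates 1 to 5. At 20 weeks it was −0.03 to 0.18, and 10-week replicates 2 and 3 again lay inside that range. Regulators of mitochondrial biogenesis, above 0 in 16 of 17 cases (median 0.26), included Esrra, the estrogen-related receptor alpha, at 74.6 ± 10.4 against 104 ± 14.4 (SD, n = 5 each). The element TCAAGGTCA of that receptor was in 0 of 20 TCA, 0 of 33 fatty acid and 1 of 62 respiratory chain promoters, in the same window. It was in 0.179% of promoters of tested genes and in 0.368% of all promoters. At shares this low, lists of this size cannot show whether the element is lacking.

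Glucose genes followed with 22 of 26 above 0 and a median of 0.26. Pygm, the muscle glycogen phosphorylase, was at 206, 235, 215, 123 and 218 at 10 weeks and at 249.8, 313, 344, 375 and 498 at 20 weeks (0.83 ± 0.19 SE, limma adjusted p = 0.112), without overlap. The difference was 0.67 without 10-week replicate 4, its lowest library. Pfkm, the muscle phosphofructokinase of glycolysis, differed by 0.50 ± 0.16 SE, and Ugp2, which makes UDP-glucose for glycogen, by 0.51 ± 0.15 SE. Of the 26 genes, 10 had an unadjusted p under 0.05 in limma and 7 passed without 20-week replicate 1, all higher. Of all tested genes 10.3% and 5.9% did so on that side.

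**Figure D4:**
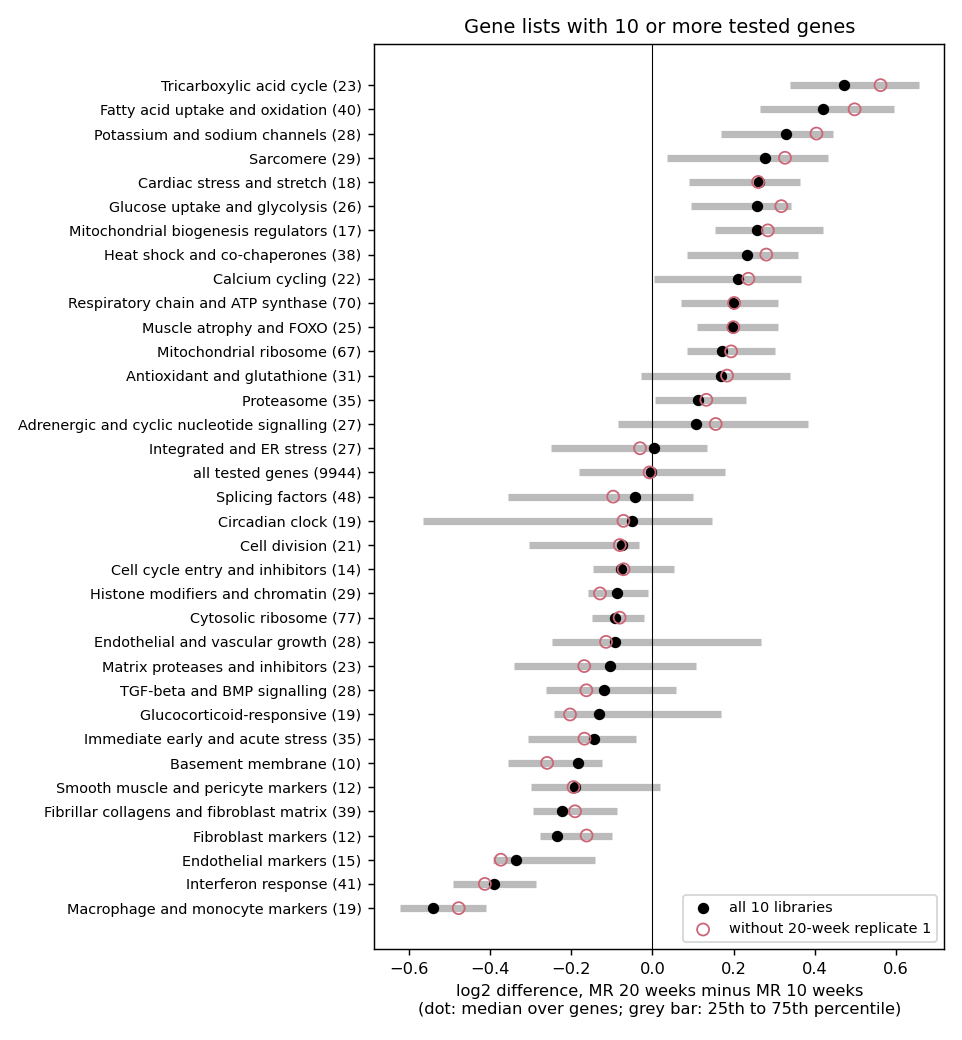
Median log2 difference between MR at 20 and 10 weeks for each gene list with 10 or more tested genes (number tested in brackets) and for all tested genes; black dots use all 10 libraries with the 25th to 75th percentile of genes as a grey bar, open circles leave out 20-week replicate 1. TCA cycle (0.47) and fatty acid genes (0.42) are at the top, macrophage markers (−0.54) and interferon genes (−0.39) at the bottom, and the open circle lies on the other side of 0 only for integrated and ER stress.

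Genes of contraction and excitation stood higher in part. In the sarcomere list 24 of 29 genes were above 0, with a median of 0.28. At an unadjusted p under 0.05 in limma 11 were higher and 2 lower, where 10.3% and 8.54% of all tested genes were. Myom2, the M-band protein myomesin 2, was at 592, 664, 767, 659 and 641 at 10 weeks and at 733, 1149, 1452, 1524 and 1516 at 20 weeks (0.89 ± 0.19 SE, limma adjusted p = 0.11). The 20-week value of replicate 1 was within the 10-week range and the other four were all above it. Pdlim5, a Z-disc adaptor, differed by 0.91 ± 0.21 SE, and Tmod1, which caps thin filaments, by 0.42 ± 0.13 SE. Tpm2, beta tropomyosin, went the other way, at 36.3, 33.5, 34.998, 46.9 and 44.03 and at 31.4, 21.8, 28.5, 19.2 and 27.5 (−0.60 ± 0.15 SE), without overlap. These 4 genes passed without 20-week replicate 1. The main ventricular sarcomere genes were not far apart: Myh6, the fast alpha myosin heavy chain, was at 17982, 17528, 15562, 6168 and 12693 and at 13861, 13233, 18111, 15399.5 and 22550.5 (0.32 ± 0.29 SE), and Myh7, the slow beta chain, at 12136 ± 3743 and 14769 ± 3255 (SD, n = 5 each, 0.30 ± 0.24 SE). The lowest Myh6 and the highest Myh7 value were both in 10-week replicate 4, and without it the difference of Myh7 was 0.47.

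Calcium handling genes were above 0 in 17 of 22 cases (median 0.21). Atp2a2, the SERCA2 pump that returns calcium to the sarcoplasmic reticulum, was at 3123, 3097, 3157, 2049 and 2964 at 10 weeks and at 2903, 3969, 4674, 4455 and 5601 at 20 weeks (0.57 ± 0.20 SE, limma adjusted p = 0.158). Here 20-week replicate 1 lay below 4 of the 10-week libraries, and without it the difference was 0.71 (limma adjusted p = 0.0307). It was 0.45 without 10-week replicate 4, the lowest library. Casq2, the calcium store protein calsequestrin of heart, was at 467 ± 52.3 and 650.2 ± 79.4 (SD, n = 5 each, 0.48 ± 0.13 SE), and its skeletal form Casq1 differed by 0.90 ± 0.23 SE. Trdn, which anchors calsequestrin to the release channel, differed by 0.53 ± 0.14 SE, and the groups of Casq2 and Trdn did not overlap.

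Potassium and sodium channel genes also stood higher at 20 weeks. Of 28 tested, 23 were above 0 (median 0.33), 10 had an unadjusted p under 0.05 in limma, all higher, and 7 passed without 20-week replicate 1. Kcnk3, which encodes the background potassium channel TASK-1, was at 4.73, 6.46, 7.08, 5.90 and 7.60 at 10 weeks and at 7.81, 10.5, 18.4, 17.9 and 30.6 at 20 weeks (1.17 ± 0.27 SE, limma adjusted p = 0.112). The groups did not overlap, and within the 20-week group the values ran from 7.81 in replicate 1 to 30.6 in replicate 5. On the scale of all 24 libraries Kcnk3 was at 83.8 ± 20.9 in MR at 40 weeks (SD, n = 5), against 16.4 ± 8.49 at 20 weeks and 6.14 ± 1.09 at 10 weeks. Scn4b, a beta subunit of sodium channels, differed by 0.61 ± 0.16 SE. In the adrenergic and cyclic nucleotide list 15 of 27 were above 0. At an unadjusted p under 0.05 in limma 8 were higher and 3 lower, where 10.3% and 8.54% of all tested genes were. Without 20-week replicate 1, 3 passed as higher and 2 as lower, where 5.9% and 4.39% of all tested genes did. Without 10-week replicate 4 the median of the channel list was 0.23, and that library was the lowest of the 10 for it.

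In the list of cardiac stress and stretch genes 14 of 18 were above 0, with a median of 0.26, and of 0.36 without 10-week replicate 4. At an unadjusted p under 0.05 in limma 2 were higher and 1 lower, where 10.3% and 8.54% of all tested genes were. The groups did not overlap for 0 of the 18, where they did not for 3.11% of all tested genes. Nppa, the atrial natriuretic peptide gene, was at 179.6, 397, 1479, 4051 and 229.5 at 10 weeks and at 647, 1416, 220.0, 335 and 499.6 at 20 weeks (−0.31 ± 0.72 SE). Its direction rests on single libraries: without 10-week replicate 4 the difference was 0.36. Nppb, the B-type natriuretic peptide gene, was at 275 ± 82.6 and 328 ± 119 (SD, n = 5 each), and Ankrd1, a stretch-responsive Z-disc and nuclear protein, at 4137 ± 1189 and 5232 ± 870.4. Acta1, skeletal alpha actin, differed by 0.42 ± 0.28 SE. For these 4 genes the 2 groups overlapped and none passed. Rcan1, a calcineurin inhibitor that calcineurin itself induces, was at 179, 189, 331, 290.4 and 189 at 10 weeks and at 349, 515, 327, 459 and 393 at 20 weeks (0.82 ± 0.19 SE, limma adjusted p = 0.11). It passed without 20-week replicate 1 (limma adjusted p = 0.0182). Sult1a1, a sulfotransferase, was at 37.5 ± 14.2 and 32.1 ± 7.64 beside 11.8 ± 3.56 in Sham (SD, n = 5 each).

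Heat shock proteins and co-chaperones were above 0 in 33 of 38 cases, with a median of 0.23. At an unadjusted p under 0.05 in limma 15 were higher and 0 lower, where 10.3% and 8.54% of all tested genes were. Without 20-week replicate 1, 9 passed as higher, where 5.9% of all tested genes did. Hspb8, Hspb6 and Hspb7, small heat shock proteins of muscle, differed by 0.51 ± 0.14 SE, 0.54 ± 0.16 SE and 0.51 ± 0.17 SE, and Hspa9, the mitochondrial Hsp70, by 0.60 ± 0.17 SE. None of these 4 passed with all 10 libraries.

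Macrophage and monocyte markers stood lower at 20 weeks. All 19 tested, of 26 in the list, were below 0, with a median of −0.54. At an unadjusted p under 0.05 in limma 13 of the 19 were lower, where 8.54% of all tested genes were. With all 10 libraries 0 passed. Without 20-week replicate 1, 3 passed as lower, where 4.39% of all tested genes did. A gene had to be seen in every library to be tested, and Cx3cr1, Ccr2 and Itgam were among the 7 not listed. The summed level of the 19 markers was 238, 258, 277, 432 and 256 in 10-week replicates 1 to 5 and 162, 257, 170.2, 143 and 229 in 20-week replicates 1 to 5. Replicate 4 at 10 weeks was the highest, and 20-week replicate 2 was level with the remaining 10-week libraries. Sham had 176 to 361.

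Aif1, a calcium-binding protein of macrophages, was at 4.92, 6.41, 6.52, 11.95 and 5.19 at 10 weeks and at 3.69, 4.67, 2.26, 2.77 and 3.43 at 20 weeks (−0.84 ± 0.21 SE, limma adjusted p = 0.114). The complement genes C1qa and C1qc, made by tissue macrophages, differed by −0.89 ± 0.23 SE and −0.61 ± 0.18 SE, and Laptm5, a lysosomal protein of blood cells, by −0.58 ± 0.16 SE. The groups of Aif1 and Laptm5 did not overlap, and those of C1qa and C1qc did. Aif1 and C1qa, both highest in 10-week replicate 4, differed by −0.65 and −0.71 without it. Without 10-week replicate 4 the median of the list was −0.46 and 0 of its genes passed. Lymphocyte markers were listed for 9 of 18 genes only, none of them a T cell receptor component, and 7 of the 8 tested were below 0 (median −0.18).

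Genes of the interferon response were nearly all on the lower side at 20 weeks. Of 41 tested, 40 were below 0, and the exception was Ddx58, the RNA sensor RIG-I (0.19). The median was −0.39, and 17 had an unadjusted p under 0.05 in limma on the lower side, where 8.54% of all tested genes did. With all 10 libraries 0 passed. Without 20-week replicate 1, 4 passed, where 4.39% of all tested genes did as lower: Parp14, Psmb10, Isg20 and Irf3. Centred over the 10 MR libraries, the mean log2 level of the list was 0.10, 0.29, −0.14, 0.58 and 0.09 at 10 weeks. At 20 weeks it was −0.05, −0.19, −0.01, −0.13 and −0.55. Here 20-week replicate 5 was the lowest and 10-week replicate 4 the highest, and 10-week replicate 3 lay within the 20-week range. Without 10-week replicate 4 the median was −0.28. Sham was at −0.13 to 0.40.

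Parp14, an ADP-ribosyltransferase, and Rsad2, the antiviral enzyme viperin, are 2 of the 4 interferon genes with the smallest p, and their upstream sequences are shown because most of this list shares a motif there. Capitals mark the interferon-stimulated element, GAAA followed by any 2 bases and a second GAAA, on either strand, at which factors of the IRF family bind, in the 250 bases before the gene start (RefSeq, GRCr8, 5′ to 3′ on the gene's strand). Parp14 is at chr11:78407884-78408133, plus strand, and Rsad2 at chr6:48788121-48788370, minus strand.
Parp14: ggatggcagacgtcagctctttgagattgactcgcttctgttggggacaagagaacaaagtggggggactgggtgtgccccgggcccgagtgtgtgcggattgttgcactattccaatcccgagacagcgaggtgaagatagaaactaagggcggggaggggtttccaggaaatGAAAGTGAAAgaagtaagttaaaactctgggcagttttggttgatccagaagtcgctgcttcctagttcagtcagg
Rsad2: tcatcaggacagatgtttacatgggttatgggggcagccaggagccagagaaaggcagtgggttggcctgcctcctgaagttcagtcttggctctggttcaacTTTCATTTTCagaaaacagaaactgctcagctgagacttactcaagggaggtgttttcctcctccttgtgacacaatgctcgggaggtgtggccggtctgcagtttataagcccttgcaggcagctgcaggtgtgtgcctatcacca
The element is 76 bases before the start of Parp14, and its reverse complement is 147 bases before the start of Rsad2. It was in 19 of the 33 interferon genes with a promoter in the table (57.6%), in 2.55% of 7830 tested genes and in 3.29% of all 27457 promoters. The list was drawn up from known interferon genes, so this share describes the list and not the difference between the times.

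Parp14 was at 27.04, 27.1, 20.5, 34.7 and 23.7 at 10 weeks and at 20.4, 16.6, 19.8, 19.9 and 15.5 at 20 weeks (−0.49 ± 0.14 SE, limma adjusted p = 0.129). The groups did not overlap, with 10-week replicate 3 just above 20-week replicate 1. Rsad2 was at 15.1 ± 2.99 and 10.3 ± 1.17 (SD, n = 5 each, −0.49 ± 0.14 SE), Tap1, the peptide transporter of antigen presentation, at 21.6 ± 5.57 and 14.6 ± 0.722 (−0.50 ± 0.15 SE), and Ifi35 at 9.38 ± 1.66 and 6.30 ± 1.10 (−0.51 ± 0.15 SE). Irf7, a transcription factor of the response, differed by −0.43. Irf7 is among the listed genes that the span of Tspan4 overlaps.

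**Figure D5:**
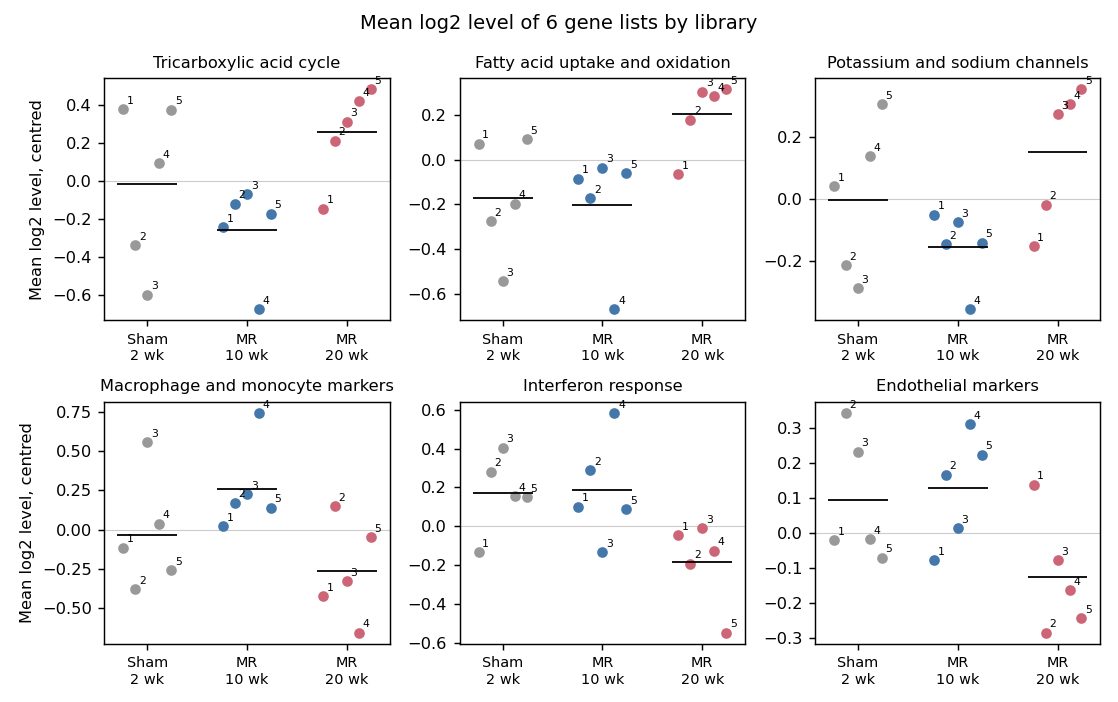
Mean log2 level of 6 gene lists in each of 15 libraries (Sham at 2 weeks, MR at 10 and 20 weeks), centred over the 10 MR libraries. Numbers are replicates and lines group means (n = 5). Replicate 1 at 20 weeks lies with the 10-week libraries for TCA cycle, fatty acid, channel and endothelial genes but not for macrophage markers (−0.42), and 10-week replicate 4 is at the end of its group in all 6 panels.

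Endothelial markers were below 0 in 14 of 15 cases, Cdh5 being the exception (0.43), with a median of −0.34. Egfl7, a protein secreted by endothelium, was at 110.1, 95.3, 112, 87.2 and 117 at 10 weeks and at 117, 59.3, 64.1, 60.3 and 39.5 at 20 weeks (−0.69 ± 0.21 SE). The value of 20-week replicate 1 was level with the highest 10-week library and the other four were far below it, and without it the difference was −0.91 (limma adjusted p = 0.00997). Pecam1, the CD31 adhesion molecule, was at 154 ± 19.4 and 121 ± 11.9 (SD, n = 5 each, −0.34 ± 0.12 SE). Of the 15, 7 had an unadjusted p under 0.05 in limma on the lower side, where 8.54% of all tested genes did. Without 20-week replicate 1, 4 passed as lower, where 4.39% of all tested genes did. In the list of vascular growth genes, which holds Tie1, Kdr and Tek as well, 16 of 28 were below 0, and in that fit 2 passed as higher and 2 as lower, near the shares of all tested genes (5.9% and 4.39%). Without 10-week replicate 4, the highest library for the endothelial markers, their median was −0.26 and the difference of Egfl7 −0.75.

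Matrix genes leaned the same way by less. Of 39 tested genes of fibrillar collagens and fibroblast matrix, 34 were below 0 (median −0.22). At an unadjusted p under 0.05 in limma 5 were lower and 1 higher, where 8.54% and 10.3% of all tested genes were. With or without 20-week replicate 1, 0 were past the threshold. Col3a1, collagen III, was at 257, 218, 273, 519 and 421 at 10 weeks and at 198, 281, 212, 226 and 232 at 20 weeks (−0.49 ± 0.20 SE), and Col1a1, collagen I, at 89.4 ± 30.1 and 70.4 ± 13.4 (SD, n = 5 each). The 2 highest Col3a1 values were in 10-week replicates 4 and 5. Postn, the matricellular protein periostin of activated fibroblasts, was at 1.59, 2.14, 5.14, 17.5 and 2.23 and at 5.43, 6.58, 1.77, 1.89 and 3.06, and its difference of −0.18 ± 0.46 SE became 0.29 without 10-week replicate 4. Timp1, which blocks matrix-degrading proteases, was at 5.27, 4.28, 15.7, 13.97 and 7.67 and at 4.75, 5.70, 4.41, 3.83 and 3.06 (−0.83 ± 0.28 SE, limma adjusted p = 0.157), with 10-week replicates 3 and 4 high. Fibroblast markers were below 0 in 10 of 12 cases (median −0.24) and smooth muscle and pericyte markers in 9 of 12 (median −0.19). The summed level of the matrix genes was 2665, 2493, 2666, 4336 and 3453 in 10-week replicates 1 to 5 and 2505 to 2728 over the 20-week libraries, so 10-week replicates 4 and 5 alone stood above the 20-week range. Without 10-week replicate 4 the medians of the matrix and fibroblast lists were −0.11 and −0.14.

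Splicing factors were mixed in all 10 libraries and on the lower side without 20-week replicate 1. Of 48 tested, 21 were above 0 and 27 below (median −0.04). In limma 9 were lower and 1 higher at an unadjusted p under 0.05, where 8.54% and 10.3% of all tested genes were. Without that library 11 passed as lower and 1 as higher, where 4.39% and 5.9% of all tested genes did. Sf3b1, a core subunit of the U2 particle, was at 199, 159.6, 132, 159 and 115 at 10 weeks and at 159, 122, 105, 97.3 and 80.7 at 20 weeks (−0.45 ± 0.18 SE). Its groups overlapped. Hnrnpa2b1, an RNA-binding protein of the hnRNP family, was the higher one, at 71.6 ± 9.17 and 93.2 ± 11.97 (SD, n = 5 each).

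Blood and fat cell markers also differed between libraries. Haemoglobin genes were uneven in both groups: Hbb, a beta globin gene, was at 3395, 594, 1686, 1050.2 and 1824 at 10 weeks and at 449.9, 1395, 463, 729 and 554 at 20 weeks (−1.16 ± 0.40 SE, limma adjusted p = 0.157). Of 7 erythroid genes tested 6 were below 0, with a median of −1.07, and 0 passed. Globin genes are near-identical copies whose reads can be split between them, so single values are uncertain. Adipocyte markers were listed for 5 of 12 genes, without Adipoq or Plin1, and all 5 were below 0 (median −0.44). Fabp4 is among the 5 and is also in the endothelial list, so these lists are not separate. Cfd, the adipocyte protease adipsin, was at 10.1 ± 2.61 and 6.27 ± 2.71 (SD, n = 5 each), and Lipe, hormone-sensitive lipase, differed by −0.48 ± 0.17 SE. The part of blood, fat or immune cells left in the tissue in the other differences was not tested.

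The FOXO and muscle atrophy list had 20 of 25 genes above 0, with a median of 0.20. Its mean log2 level, centred over the 10 MR libraries, was −0.04, −0.03, −0.09, −0.15 and −0.23 in 10-week replicates 1 to 5. In 20-week replicates 1 to 5 it was 0.04, 0.15, 0.12, 0.07 and 0.15. Every 20-week library, replicate 1 included, was thus above every 10-week library. Without 20-week replicate 1, 3 of its genes passed as higher, Klhl31 and the mitophagy gene Bnip3 (0.53) among them, and 1 as lower. Of all tested genes 5.9% passed as higher and 4.39% as lower in that fit. Antioxidant genes were above 0 in 21 of 31 cases (median 0.17). Proteasome genes were above 0 in 26 of 35 (median 0.11), but the median was −0.0045 on the deposited values with no rescaling. Basement membrane genes were below 0 in 9 of 10 cases (median −0.18, and −0.10 without 10-week replicate 4), and matrix proteases and their inhibitors in 15 of 23 (median −0.11).

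Cytosolic ribosome genes had a median of −0.09 (61 of 77 below 0), genes of cell division −0.08 over the 21 of 44 that were tested, cell cycle entry and inhibitors −0.08, integrated and ER stress 0.00, TGF-beta and BMP signalling −0.12 and histone modifiers −0.09. Of the other cell type markers, 7 of 12 Schwann and neuronal genes were tested (median 0.30), and 4 or fewer each of the mast cell, neutrophil, mesothelial and skeletal muscle lists. In the glucocorticoid-responsive list, whose median was −0.13, 0 of 19 tested genes passed with all 10 libraries. Without 20-week replicate 1, Pdk4 and Gpd1 (0.50) passed as higher, where 5.9% of all tested genes did. Immediate early genes had 29 of 35 below 0 (median −0.14). Junb, a member of the AP-1 family, was at 136, 125, 129, 288 and 174 at 10 weeks and at 115, 109.7, 99.7, 105 and 140.3 at 20 weeks (−0.51 ± 0.20 SE), and the one library far above the rest was 10-week replicate 4.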

How the data were processed

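Per the labels' protocols, frozen heart tissue gave RNA through a miRNeasy kit for Illumina sequencing. Per the submitters' processing notes, Partek and the rat build rn6 were used; how reads were aligned, assigned to genes and scaled is not given in the sources used here. Deposited values are a signal: linear normalised gene counts in 1 table per MR time with the same 5 Sham libraries. They are counts divided by 1 factor per library: 96.5% to 98.4% of low values (up to 20 reads) were within 0.1 read of a whole read. A Sham library differed between the 2 tables by a constant ratio of 0.963 to 0.979. Gene starts may count from 0 or 1.

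Tables were joined on symbol and rescaled by median ratios. The two-sided test was limma 3.58.1 (R 4.3.3; empirical Bayes, mean trend) of log2(value + 1) over the 10 MR libraries, for genes with a mean of at least 1 (9944 genes). The log2(value + 1) scale understates differences of low genes. The 2 MR groups had 9.48 ± 0.483 to 10.5 ± 1.34 M reads per library (SD, n = 5). The labels name no molecular identifiers, so depth speaks to counting error only. Chi-square per gene in 20 pairs of libraries of 1 group was 10.4 to 80.2, so none is a copy of another in its group. Pairs across the groups were not compared. Since values are scaled counts, edgeR 4.0.16 and DESeq2 1.42.0 were alternatives on recovered reads. The limma step was tested on simulated data.

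Named genes are 12 higher and 12 lower at 20 weeks (those that passed, 0 and 3, filled up by smallest p among genes whose groups do not overlap), up to 4 genes of smallest p per described list, and a panel (Acta1, Ankrd1, Atp2a2, Col1a1, Col3a1, Cpt1b, Myh6, Myh7, Nppa, Nppb, Pdk4, Per2, Postn, Sult1a1, Timp1 and Ucp3). Other names were chosen after their values were seen. The comparison, the 44 gene lists and the rules were chosen with earlier results of these data known. Motifs were searched in RefSeq promoters (GRCr8), matched by symbol for 7830 of 9944 tested genes.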

Additional observations from a re-analysis of the deposited data

Results flagged for a closer look

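A library is listed here when its gap to the nearest of the other 4 libraries of its group exceeded 0.71 of the group's range (Dixon's 95% critical value). Of 250 sets of 5 values checked, over the named genes and 19 lists, 27 were listed, where chance gives about 1 in 20.

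Replicate 4 at 10 weeks accounts for 11 of them. It was low for the fatty acid and TCA cycle lists (mean log2 levels of −0.67 and −0.68, where the others were at −0.17 to −0.03 and −0.24 to −0.07), for Atp2a2 (2049 against 2964 to 3157) and for Pygm (123.1 against 205.9 to 235.4). It was high for the macrophage list (0.74 against 0.02 to 0.23), Aif1 (11.95 against 4.92 to 6.516), C1qa (53.06 against 27.0 to 30.34), Fabp4 (690.9 against 447.8 to 481.4), Postn (17.45 against 1.588 to 5.135), Ankrd23 (73.44 against 13.19 to 21.97) and Myh7 (18616 against 9143 to 11520). The macrophage and fuel lists stood apart in the same library.

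Replicate 1 at 20 weeks was low for Herc3 (17.46 against 22.48 to 24.46), Pdhb (144.0 against 201.9 to 220.7), Casq2 (512.4 against 666.8 to 713.3) and Cryab (1924 against 2466 to 2687). Replicate 5 at 20 weeks was high for Pdk4 (80.88 against 29.69 to 40.59), Tfb2m (34.13 against 28.64 to 30.19) and Thbs1 (16.11 against 3.292 to 5.534), and replicate 2 for Hba1 (3544 against 1036 to 1589) and Hbb-b1 (255.3 against 89.22 to 127.5). At 10 weeks replicate 3 was high for Mt2A (9.882 against 2.233 to 3.985), Hspb8 (236.0 against 179.8 to 190.7), Hspb7 (907.4 against 653.4 to 722.9) and the heat shock list (−0.06 against −0.14 to −0.11). Replicate 1 was high for Nr1d2 (111.5 against 63.31 to 76.29), replicate 2 for Ugp2 (66.74 against 60.67 to 61.5), and replicate 5 low for the sarcomere list (−0.39 against −0.10 to 0.01).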

How the results depend on the processing

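Rises numbered 0 and falls 3 with pseudocounts of 0.1 and 5, no filter on low values, TMM scaling, the fit of 15 libraries, no mean trend, robust moderation and edgeR. Falls numbered 9 on the deposited values, 7 with tables linked through Sham, 2 at a mean of at least 10 and 1 in the fit of 24 libraries, with 0 rises in each. The count was 262 and 153 with DESeq2 and 577 and 412 with library weights; 377 of DESeq2's calls were also made without 20-week replicate 1. With 1 library left out, rises ranged from 0 to 587 and falls from 0 to 437, the highest counts coming without 20-week replicate 1. Why that library differs was not tested. Differences reversed for Nppa without 10-week replicate 3 (0.000197) or 4 (0.36), Postn without 10-week replicate 4 (0.29) and Sult1a1 with library weights (0.014); with 1 library left out Nppa ranged from −0.76 to 0.36 and Postn from −0.41 to 0.29; none of these passed and the cause was not tested. Of 2529 values of the 106 named genes under 24 alternatives, 2288 kept their direction and side of the threshold, 214 newly passed and 23 no longer passed. Only 3 of the 106 passed with all 10 libraries, so keeping a side mostly meant still not passing. Of 1053 list medians 17 moved by more than the spread between libraries. No paired analysis was possible because the labels give the groups no shared replicate numbers. Genes at low levels, or absent from a library, are beyond what the listing shows.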
